A study of Mus musculus with 25 samples.

Results

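Cluster 3 of the authors' cell annotation held 3660 of the 30958 deposited cells, or 11.8%. It made up 26.7% of the 13693 cells in clusters 1 to 6, treated here as the microglial clusters. Its members were the cells carrying that cluster number, matched by barcode to the raw counts of their library, and the working name was Cst7 and Apoc-high microglia. The other clusters set beside it were cluster 1 with 1887 cells, cluster 2 with 1924, cluster 4 with 1377, cluster 5 with 3330 and cluster 6 with 1515.

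The data came from droplet capture with 3′ libraries of myeloid cells taken by fluorescence sorting from a 5 mm piece of mouse spinal cord around an injury. There were 25 libraries, each pooling 1 to 3 mice, from mice with laminectomy alone (Ctrl, an operation on the bone that leaves the cord uninjured) or from injured mice at day 1, 2, 3, 10 or 21, written D1 to D21. All mice carried Cx3cr1CreERT2, an inducible Cre recombinase placed at the Cx3cr1 gene, and their cells were sorted on YFP. In the Cx3cr1CreERT2:R26tdTomato strain a red reporter (RFP) is switched on by Cre, and cells with both colours are called resident here and cells with YFP alone infiltrating, as their titles do. In the Cx3cr1CreERT2 strain all YFP-positive cells were collected together, and these libraries are called mixed. The mixed sort therefore always goes with the strain that lacks the red reporter, and effects of sort and strain cannot be told apart between mixed libraries and the others. The library of 1 D3 sample whose title and sort label disagree is called D3_conflict and held 6 cluster 3 cells. The labels give males and females but no age, and they do not say whether libraries of a group came from separate days. Among the resident and mixed libraries tested below, the D10 resident one was female and the D10 mixed ones male. The D2 resident one was male and the D2 mixed one female, so sex goes with sort at both times. The D1 library was male, the D21 one female, and at D3 all but the first resident library were male.

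Microglia are the resident macrophages of the brain and spinal cord. In the resting cord they express a set of genes that includes P2ry12, Tmem119 and Sall1, and in demyelination, neurodegeneration and injury many of them take up a lipid and lysosome program with high Apoe, Cst7, Lpl and Itgax. Cst7 encodes cystatin F, an inhibitor of lysosomal cathepsins. Apoc1 and Apoc4 encode small apolipoproteins, Igf1 encodes an insulin-like growth factor, Lag3 encodes an inhibitory receptor of the CD4 family, and Chst2 encodes a sulphotransferase of the Golgi.

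Apoc1 and Apoc4 lie in the apolipoprotein gene cluster beside Apoe. On GRCm38 with the GENCODE M21 annotation, Apoc2 (chr7:19671579-19677941), Apoc4 (chr7:19678083-19681479), Apoc1 (chr7:19689481-19692660) and Apoe (chr7:19696109-19699188) sit side by side on the minus strand within 27610 bases. Cst7 lies on the plus strand at chr2:150570415-150578944. The RefSeq promoter windows (GRCm38.p6, 300 bases around the start) are shown for Cst7 and for Apoc4 and Apoe of the apolipoprotein locus, which rose within the cluster between D3 and D10. Igf1 and Chst2 rose too, and their windows were searched without being printed. Capitals mark the letters AGGAAGT, the core of sites of the ETS family to which the microglial factor PU.1 belongs, on either strand; the AP-1 site TGAGTCA and the E-box CACGTG were searched on both strands too.
Cst7, chr2:150570165-150570464, plus strand: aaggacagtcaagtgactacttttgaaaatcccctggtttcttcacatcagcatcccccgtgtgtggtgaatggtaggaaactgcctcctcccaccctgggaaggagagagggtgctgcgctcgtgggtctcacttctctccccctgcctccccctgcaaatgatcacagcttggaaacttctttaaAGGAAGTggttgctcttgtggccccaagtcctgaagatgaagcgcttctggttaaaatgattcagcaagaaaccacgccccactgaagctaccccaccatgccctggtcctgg
Apoc4, chr7:19681411-19681710, minus strand: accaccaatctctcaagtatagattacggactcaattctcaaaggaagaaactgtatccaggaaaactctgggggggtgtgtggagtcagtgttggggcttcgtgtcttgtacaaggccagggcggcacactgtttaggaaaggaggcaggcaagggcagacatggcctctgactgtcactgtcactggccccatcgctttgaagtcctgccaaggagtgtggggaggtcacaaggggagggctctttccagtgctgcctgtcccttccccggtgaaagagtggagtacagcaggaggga
Apoe, chr7:19699139-19699438, minus strand: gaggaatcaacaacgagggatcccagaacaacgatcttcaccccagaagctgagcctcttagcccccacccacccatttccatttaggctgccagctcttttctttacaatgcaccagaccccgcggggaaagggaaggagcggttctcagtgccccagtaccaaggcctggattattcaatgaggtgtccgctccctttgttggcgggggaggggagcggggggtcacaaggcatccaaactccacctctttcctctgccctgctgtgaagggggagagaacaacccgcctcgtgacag
The Cst7 window held 1 match to AGGAAGT and the windows of Apoc4, Apoe, Igf1 and Chst2 held none. AGGAAGT was present in 9.57% of 27025 mouse promoter windows of this length, TGAGTCA in 5.17% and CACGTG in 7.24%. Neither TGAGTCA nor CACGTG occurred in the 5 windows.

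Cluster 3 was not detected in the laminectomy controls, and its share was higher at later times after injury. The Ctrl libraries held 0 cluster 3 cells of 1887, which allows a share of up to 0.159% by counting error alone, and all of their cells were in cluster 1. At D1 the 3 mixed libraries held 12, 5 and 25 cluster 3 cells, which were 0.995%, 0.629% and 1.86% of their cells in clusters 1 to 6. At D2 the share was 17.3% in the resident library and 6.06% in the first mixed library. The other D2 mixed library had 23 cells in clusters 1 to 6, of which 2 were in cluster 3. At D3 the share was 38.0% and 42.8% in the resident libraries and 39.1%, 37.9% and 39.2% in the mixed ones. At D10 it was 46.1% in the resident library and 52.8% and 49.6% in the mixed libraries, and at D21 it was 73.5% in the single mixed library. The D3 and D10 libraries did not overlap, and at D21 1 library stands alone. Because clusters are drawn on genes that themselves change with time, these shares are a description and were not tested. Of all cluster 3 cells, 66.2% came from D10 or D21, against 21.3% of the cells of clusters 2, 4, 5 and 6.

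**Figure D1:**
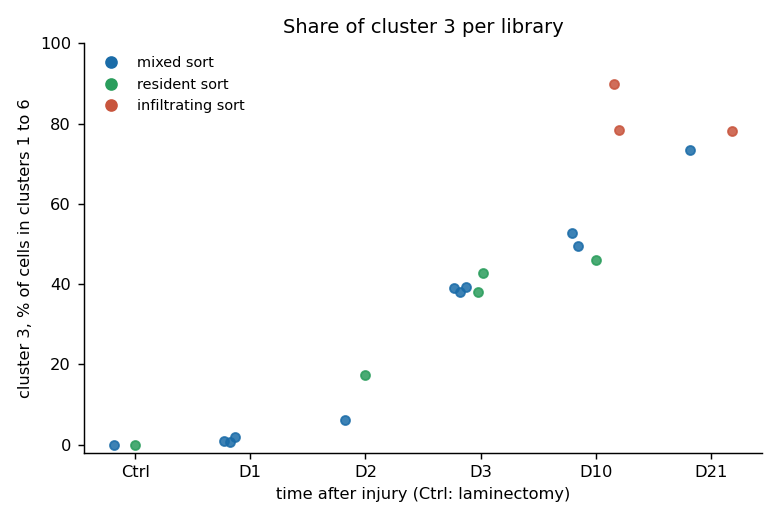
Share of cluster 3 among the cells of clusters 1 to 6 (vertical axis, percent) by time point, 1 point per library with at least 50 such cells, coloured by sort. The D3 resident and mixed libraries sit between 37.9% and 42.8%, the D10 ones between 46.1% and 52.8%, and the infiltrating libraries of D10 and D21 between 78.0% and 90.0%.

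The infiltrating sort also held cluster 3 cells late after injury. The 2 infiltrating libraries of D10 held 63 and 83, and the infiltrating library of D21 held 64. These were 90.0%, 78.3% and 78.0% of their few cells in clusters 1 to 6. They were set apart from the 12 resident and mixed libraries with at least 20 cluster 3 cells (3421 cells), because most of them carried another cell type code, as described further on. Of those 12 libraries, 1 was from D1, 2 from D2, 5 from D3, 3 from D10 and the last from D21. They had 25 to 818 cluster 3 cells each and a median of 1577 to 3150 unique molecular identifiers (UMIs, counts of captured RNA molecules) per cell. Counts were summed per library and given as CPM, that is per 1e6 counts of the sum. The cluster 3 cells had fewer median UMIs and fewer median genes than the other cells of clusters 2, 4, 5 and 6 in all 12 libraries, for example 2091 against 4231 UMIs in the first D10 mixed library. Their median percent of mitochondrial UMIs was higher in 11 of 12 (median over libraries 1.04% against 0.581%). The part of these differences in the results was not tested. The same cell barcode occurred in more than 1 library for 254 cells, 25 of them in cluster 3.

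On the marker lists the cells of these 12 libraries were microglial. All 9 microglia markers listed, among them P2ry12, Tmem119, Cx3cr1, Sall1, Fcrls, Siglech, Gpr34 and Olfml3, averaged at least 20 CPM over the 12 libraries, and their summed level was 7154 to 18780 CPM. None of the listed markers of monocytes, dendritic cells, lymphocytes, astrocytes, neurons, vessels or fibroblasts reached 20 CPM. Cd3e, Cd3d, Trbc2, Ncr1, Ly6g, Cd163, Xcr1, Clec9a, Cldn5, Rgs5, Dcn and Lum had no count. The macrophage list had 5 of 8 genes at that level (Fn1, Ms4a7, Cd36, Pf4 and Ecm1), with a sum of 201 to 850 CPM. The border macrophage list had 2 of 7 (Pf4 and Ms4a7), with a sum of 42.4 to 474 CPM, and a median within-library log2 difference of 0.43 from the other clusters, beside -0.21 over all genes. The oligodendrocyte list had 3 of 7, Mbp and Cnp among them, with a sum of 66.8 to 544 CPM, and the neutrophil and red blood cell lists had 1 gene each (Csf3r and Hbb-bs). The part of these transcripts in the results below was not tested.

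The name of the cluster described its pooled cells better than its cells within a library. With all libraries pooled, Cst7 stood at 1120 CPM in cluster 3 and 321 CPM in clusters 2, 4, 5 and 6 together, a log2 ratio of 1.79 after adding 5 CPM to each. Set side by side inside each of the 12 libraries, the same ratio had a median of 0.75, was positive in 11 of 12 and ranged from -0.15 to 1.15. In the D10 resident library, Cst7 was 1948 CPM in cluster 3 and 1050 CPM in the other cells, whereas at D1 it was 34.9 and 39.3 CPM. Apoc4 fell from a pooled log2 ratio of 1.82 to a within-library median of 0.45 (higher in 11 of 12), and Apoc1 from 1.37 to 0.47 (higher in all 12, from 0.12 to 2.22). Igf1 had 1.29 pooled and 0.35 within libraries (8 of 12), and Chst2 0.80 and 0.12 (8 of 12). Lag3 went the other way, with 0.60 pooled and 0.75 within libraries (9 of 12). The exceptions were the D10 libraries, where Lag3 was lower in cluster 3. It was 280 against 321 CPM in the resident library, and 384 against 494 CPM and 520 against 715 CPM in the mixed ones. At D21 it was higher, with 447 against 382 CPM. Clusters were made from these genes, so none of these ratios has a test.

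**Figure D2:**
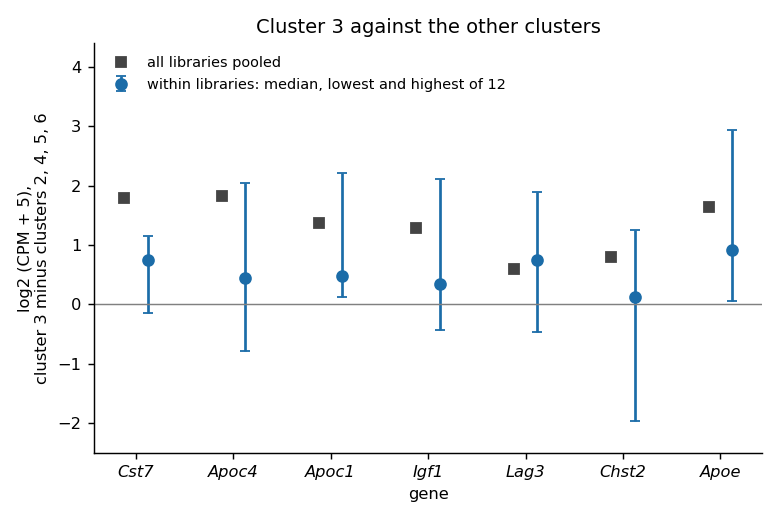
Difference in log2(CPM + 5) between cluster 3 and clusters 2, 4, 5 and 6 for 7 genes (vertical axis). Squares pool all libraries, and circles give the median of 12 within-library differences with bars from the lowest to the highest; for Cst7 the square is at 1.79 and the circle at 0.75.

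Only part of the name set cluster 3 apart from cluster 4, which shares 6 libraries with it. Cst7 was higher in cluster 3 in 5 of those 6 libraries (median log2 difference 0.90), but Lag3 was lower in all 6 (median -0.69, from -1.05 to -0.25), and Chst2 was lower in 5 of 6 (median -0.24). Apoc1 differed by a median of only 0.19. The D10 means of Apoc4 (270 and 188 CPM) and Igf1 (378.5 and 255 CPM) were higher in cluster 3 than in cluster 4. In the D21 library Apoc4 was 352 and 359 CPM and Igf1 338 and 310 CPM. The genes highest against cluster 4 were higher in all 6 libraries: Gpnmb, a glycoprotein of lysosomes, by 1.46, Fabp5, a carrier of fatty acids, by 1.43, Lgals3, a galectin, by 1.26, the ferritin gene Ftl1 by 1.14 and Lgals1 by 1.09. Cluster 4 held 0 cells of cell type code 2, against 5.12% of the cluster 3 cells in the 12 libraries, and code 2 cells of cluster 3 were rich in Gpnmb (values further on); their part in this difference was not tested. The lowest against cluster 4 were AC149090.1 (-3.72), Ogt (-3.61), Exosc2 (-3.39), Stx16 (-3.29) and Tmcc3 (-3.26), all lower in 6 of 6 libraries except Exosc2, which was lower in 5. The lists differed from those against all other clusters together, given further on. Of the homeostatic microglia genes 20 of 21 were lower than in cluster 4 in every shared library (median -0.92, beside -0.18 over all genes, of which 582 of 4343 were higher and 1301 lower in every library). Lysosome genes had a median of -0.03 (3 of 26 higher and 8 lower in every library), phagocytic receptors -0.22 (2 of 21 higher and 9 lower) and damage-associated microglia genes 0.16 (8 of 28 higher and 3 lower), to be read against those counts over all genes.

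Against cluster 5, which shares 10 libraries, the genes lowest in cluster 3 were genes of replication. Of the cell cycle list 5 of 9 were lower in every shared library (median -1.58). Over all genes 476 of 4343 were (median -0.13). Rrm2, a subunit of ribonucleotide reductase, was lower in cluster 3 by a median of 3.6 on the log2 scale, with Pclaf (-3.10), Hells (-2.98), Mcm7 (-2.73) and Ccne2 (-2.71) next. None of these was higher in cluster 3 in any of the 10 libraries. Higher in all 10 were the chemokine Ccl5 (1.95), Ypel3 (1.86), Pdcd4 (1.70), Abca9 (1.69) and Apoc1 (1.65). Cst7 was also higher than in cluster 5 in all 10 libraries (median 0.59) and than in cluster 6 in all 10 (median 0.46). Mki67, a marker of dividing cells, was found in a median of 0% of cluster 3 cells at 2000 UMIs per cell, over 11 libraries, with the highest at 3.53%, against 29.3% in cluster 6 over 9 libraries (0.345% over 12 and 35.3% over 10 without equalising depth). At 1000 UMIs per cell the shares were 0.187% and 9.46%.

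Against clusters 2, 4, 5 and 6 together, 57 of 4343 genes at 20 CPM or more were higher in cluster 3 in every library, 247 were lower in every library, and none of the 57 reached a median of 2-fold. Apoe had the highest median log2 difference, 0.92, and was higher in 12 of 12 libraries, from 0.05 in the first D10 mixed library (52640 against 50780 CPM) to 2.94 in the D2 mixed library (5060 against 657 CPM). Next were Pla2g7, which encodes a phospholipase that acts on oxidised lipids (0.90), Cd79b (0.85), the lysozyme gene Lyz2 (0.83), Ms4a7 (0.82), Tmem176a (0.78), the selenium carrier gene Selenop (0.77), Lag3 (0.75), Hexa (0.75), Cst7 (0.75) and Ecm1 (0.75). Hexa encodes a lysosomal hexosaminidase. Folr2 (0.74), Mxd4 (0.74), Ramp1 (0.72), Cd83 (0.72), Pld3 (0.72), Ypel3 (0.71), Atp13a2 (0.70), Man2b2 (0.70) and Itm2b (0.69) completed the 20 highest. Pld3, a lysosomal exonuclease, was the only other gene of the 20 higher in all 12. Of the lists, damage-associated microglia genes had a median of 0.48 (8 of 28 higher in every library) and lysosome genes 0.47 (6 of 26), beside -0.21 over all genes. Phagocytic receptors had 0.37 (6 of 21), and cell cycle genes had -1.47, with 6 of 9 lower in every library. Cluster 2, part of that reference, was poorer in microglial genes. Against it alone, in 11 libraries, the microglia list had a median of 1.78 (8 of 9 higher in every library). Homeostatic microglia genes had 1.76 (15 of 21) and lysosome genes 1.37 (16 of 26), beside -0.19 over all genes (261 of 4343).

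The working markers were not equally rare outside injury. In cluster 1, which is made up of the 2 Ctrl libraries, Cst7 was 17.9 and 38.8 CPM, Apoc4 was 0.179 and 0.539 CPM, Apoc1 was 2.50 and 2.16 CPM and Apoe was 1575 and 1625 CPM. Lag3 was 381 and 223 CPM there, within or above the D3 range of cluster 3. Every D3 library of cluster 3 was thus above both Ctrl libraries for Cst7, Apoc4, Apoc1 and Apoe, but not for Lag3. Clusters 9 and 11, whose cells all carry the authors' cell type code 2 rather than 1, served as the background for free RNA, in 3 libraries each. At 2000 UMIs per cell a median of 1.13% of cluster 9 cells and 3.45% of cluster 11 cells had a Cst7 UMI, against 45.4% of cluster 3 cells (21.4% to 83.5% over 11 libraries). Without equalising depth the shares were 4.07% over 3 libraries, 2.08% over 4 and 42.9% over 12, at median depths of 7117, 10000 and 2272 UMIs. The 1382 of 3421 cluster 3 cells with fewer than 2000 UMIs were left out of these shares. The shares depend on the depth chosen, and at 1000 UMIs per cell the Cst7 share was 24.4% in cluster 3 (12 libraries) and 0.71% in cluster 9.

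Between D3 and D10 Apoc1, Apoc4 and 7 of the damage-associated microglia genes, Apoe among them, rose within the cluster. Some genes of dividing cells fell. Several of these changes were also seen in other clusters, as described further on. In edgeR's quasi-likelihood fit with Benjamini-Hochberg adjustment, 46 of 7727 genes passed an adjusted p of 0.05 (0.595% of the genes tested), 26 higher at D10 (0.336%) and 20 lower (0.259%). The median percent of mitochondrial UMIs of the cluster 3 cells also differed, with 0.876% to 2.00% in the D3 libraries and 0.116% to 0.783% at D10 without overlap, and its part in these calls was not tested. All 6 working markers were among the 26. They had been picked on these cells, most of which are from D10 and D21, so this count is not independent evidence of a direction.

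Cst7 was 156 and 253 CPM in the D3 resident libraries and 418, 267 and 239 CPM in the D3 mixed ones. At D10 it was 1948 CPM in the resident library and 1393 and 1576 CPM in the mixed libraries. The lowest D10 library was above the highest D3 library, and the log2 difference was 2.94 ± 0.30 (SE; adjusted p 2.2e-05, edgeR). In the 2 D2 libraries Cst7 was 402 and 198 CPM, in the range of D3, and at D21 it was 1574 CPM.

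Apoc1 was 126, 101, 207, 147 and 123 CPM in the 5 D3 libraries and 578, 860 and 903 CPM at D10. The groups did not overlap, and the log2 difference was 2.75 ± 0.25 (SE; adjusted p 8.9e-06, edgeR). Apoc4 was 22.3, 24.3, 53.0, 25.9 and 58.1 CPM at D3 and 352, 249 and 209 CPM at D10, again without overlap (3.00 ± 0.33; adjusted p 6.4e-05, edgeR). Apoe, the main apolipoprotein of the central nervous system, was 26050, 15290, 44140, 27620 and 20020 CPM at D3 and 71100, 52640 and 64230 CPM at D10. Its log2 difference was 1.43 ± 0.30 (adjusted p 0.033, edgeR), and this call was lost under 11 of the alternative settings, among them median-of-ratios scaling and leaving out any 1 of 8 libraries. Apoc2, the remaining gene of the locus, was at 0 to 2.62 CPM in all 12 libraries.

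Igf1 was 96.6 to 180 CPM at D3 and 344 to 410 CPM at D10 (1.53 ± 0.24; adjusted p 0.0030, edgeR), with no overlap. Lag3 was spread widely at D3, with 74.3, 38.2, 265, 194 and 88.3 CPM, and reached 280, 384 and 520 CPM at D10. The lowest D10 library was just above the highest D3 one, and the log2 difference was 1.97 ± 0.40 (adjusted p 0.022, edgeR). The Lag3 call was lost under 9 settings, including without any 1 of 6 libraries. Chst2 was 35.3 ± 17.2 CPM at D3 (SD, n = 5) and 93.1 ± 34.8 CPM at D10 (SD, n = 3), and its groups overlapped although it passed the test (1.82 ± 0.35; adjusted p 0.013, edgeR).

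**Figure D3:**
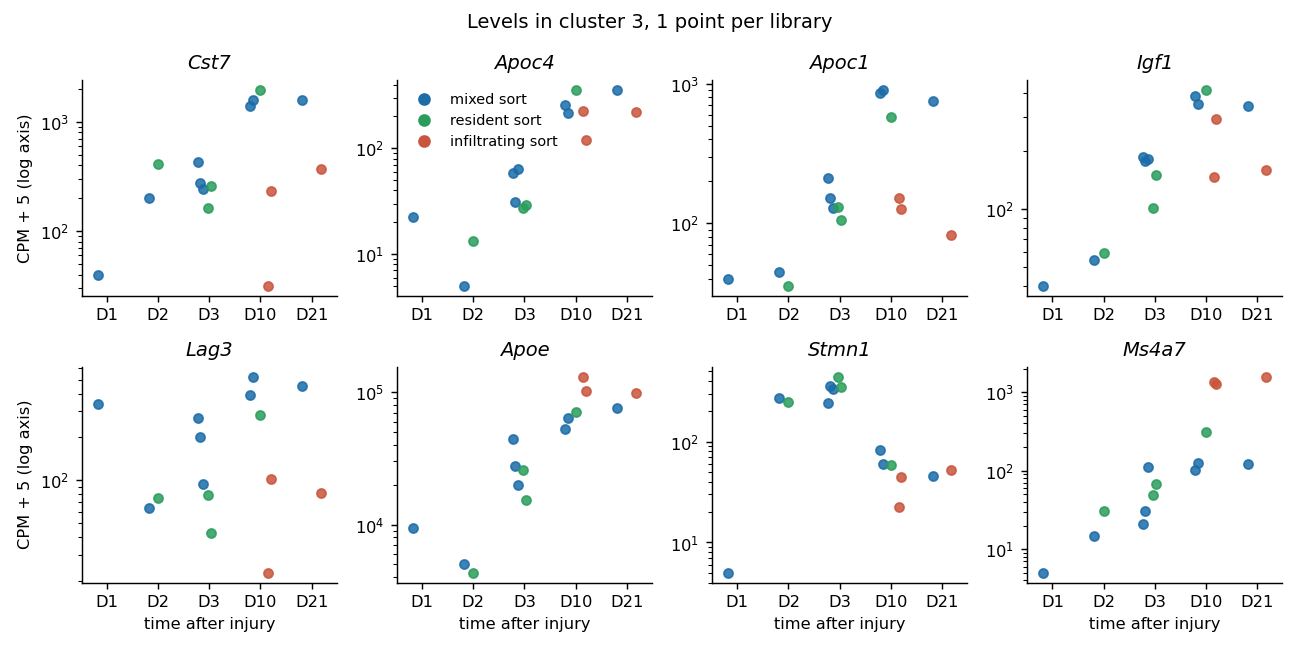
Level of 8 genes in cluster 3 (CPM + 5, log axis) by time point after injury, 1 point per library with at least 20 cluster 3 cells, coloured by sort. For Cst7 the D10 mixed and resident libraries sit at 1393 to 1948 CPM, the D3 ones at 156 to 418 CPM, and the infiltrating libraries of D10 and D21 at 26.6 to 367 CPM.

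Higher Cst7 at D10 than at D3 was also seen in other clusters, given here as a description. At D3 the mean level of Cst7 was 267 ± 95.1 CPM in cluster 3 (SD, n = 5), 205 ± 98.5 CPM in cluster 5 (n = 4) and 204 ± 58.5 CPM in cluster 6 (n = 5). At D10 it was 1639 ± 283 CPM in cluster 3 (n = 3), 826 ± 195 CPM in cluster 4 (n = 3), 1122 ± 86.5 CPM in cluster 5 (n = 2) and 1097 ± 39.8 CPM in cluster 6 (n = 3). In clusters 3, 5 and 6, each with more than 1 library at both times, every D10 library was above every D3 library. The difference between clusters in that change was not tested, and cluster 2 is not included. Other genes also differed between D3 and D10 in clusters 5 and 6, given as means and not tested. In cluster 6 Apoc1 was 63.5 and 403 CPM, Apoc4 19.7 and 164 CPM, Apoe 10930 and 27720 CPM and Lgals1 1060 and 187 CPM. In cluster 5 Apoc1 was 34.9 and 443 CPM, Apoe 9315 and 36030 CPM and Stmn1 638.5 and 260 CPM. Stmn1 in cluster 6 was higher at D10, with 1425 and 2153 CPM. Apoe at D10 was 62660 ± 9330 CPM in cluster 3, 63430 ± 3516 CPM in cluster 4 and 27720 ± 7078 CPM in cluster 6 (SD, n = 3 each). Lag3 at D10 was 395 ± 120 CPM in cluster 3, 616 ± 209 CPM in cluster 4 and 74.4 ± 37.3 CPM in cluster 6 (SD, n = 3 each).

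Among the damage-associated microglia genes 7 of 30 tested rose and none fell (median log2 0.67, beside -0.02 over all genes). Over all genes tested 0.336% were called as higher. The 7 were Cst7, Igf1, Apoe, Ccl6, Itgax, Clec7a and Ank. Cst7 and Igf1 are working markers picked on these cells, so their calls are not independent evidence of a direction. Ccl6, a chemokine, was 119 to 302 CPM at D3 and 847 to 891 CPM at D10 (2.30 ± 0.26; adjusted p 9.0e-05, edgeR). Clec7a, the receptor for fungal beta-glucan, was 138 to 304 CPM and 552 to 685 CPM (1.55 ± 0.25; adjusted p 0.0033, edgeR). Itgax, which encodes the integrin CD11c, was 0 to 6.46 CPM at D3, with 8 counts in 5 libraries, and 31.4 to 52.1 CPM at D10 (3.58 ± 0.53; adjusted p 0.0020, edgeR). The genes of lipoprotein handling that rose, 3 of 23 tested, were Apoc1, Apoc4 and Apoe. Apoc1 and Apoc4 are working markers too, as is Cst7 in the lysosome list below, with the same limit. Of the phagocytic list 3 of 23 rose, namely Itgax, Clec7a and the complement gene C3. Of the lysosome list 2 of 27 rose, Cst7 and Atp6v0d2, a proton pump subunit that is also known from osteoclasts, with a median of -0.06. None of the 22 homeostatic microglia genes passed in either direction (median -0.18).

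Other genes that rose without overlap were Baiap2l2 (3.06), Il4i1 (2.87), Bambi (2.77), Pianp (2.76), Ptgds (2.76) and Mmp12 (2.61), all as log2 differences. Il4i1, an amino acid oxidase, was 11.6 ± 11.4 CPM at D3 (SD, n = 5) and 78.3 ± 15.4 CPM at D10 (SD, n = 3). Pianp was 13.2 ± 7.77 and 68.6 ± 5.19 CPM. The calls of Bambi, Ptgds and Mmp12 were lost under 14, 16 and 12 of the alternative settings, that of Baiap2l2 under 9 and that of Il4i1 under 5. Bambi encodes a decoy receptor of TGF-beta signalling, and Ptgds encodes a prostaglandin synthase. Of the chemokine list, Ccl6 and Cxcl14 rose and Ccl7 fell, and the D3 and D10 libraries overlapped for Ccl7. With the replicate block the Ccl7 difference reversed to 3.18. Of the neutrophil list 1 of 3 tested rose, S100a9, also with overlap.

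Of the cell cycle list 3 of 17 tested fell and none rose (median -1.64). Stmn1, which encodes a microtubule regulator high in dividing cells, was 438, 348, 238, 349 and 329 CPM at D3 and 53.7, 78.6 and 54.6 CPM at D10. All 3 D10 libraries were below every D3 library, and Stmn1 fell by 2.24 ± 0.26 on the log2 scale (adjusted p 1.0e-04, edgeR). Birc5, which encodes survivin, was 30.1 to 51.7 CPM at D3 and 1.31 to 5.57 CPM at D10, and Ccnb2, a mitotic cyclin, was 21.2 to 90.5 and 3.26 to 9.28 CPM. Cdca3 (-4.30), Pclaf (-4.13), Spc24 (-3.86) and Knstrn (-2.66), further genes of replication or mitosis, were also called. Without the second D10 mixed library 1 gene was called as lower (20 with it), and of the falls named here and below Stmn1 alone kept its call. Without the first D10 mixed library 3 were called as lower, and of the named falls Stmn1 and S100a4 kept theirs.

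The remaining falls were of another kind. S100a4 (-3.75) and S100a6 (-3.01) encode calcium-binding proteins; S100a6 was 163, 60.1, 68.8, 21.6 and 136 CPM at D3 and 7.33 to 10.52 CPM at D10. Lgals1, a galectin, was 599 to 785 CPM at D3 and 163 to 292 CPM at D10, and fell by 1.60 ± 0.27 (adjusted p 0.0054, edgeR). Klf2, a transcription factor of the immediate early list, was 89.1 to 276 CPM at D3 and 15.5 to 52.4 CPM at D10.

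**Figure D4:**
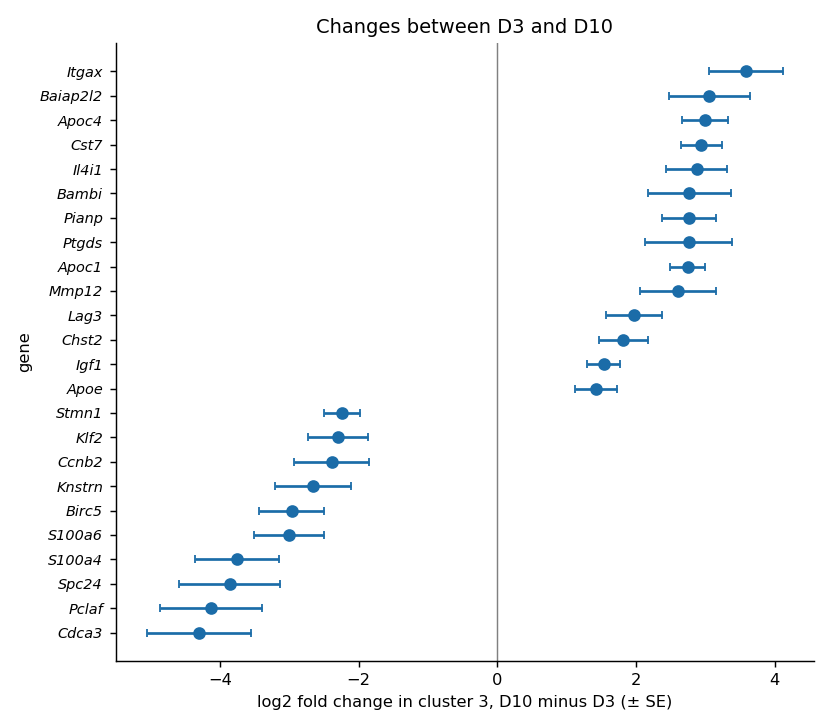
Log2 fold change of named genes in cluster 3, D10 minus D3 (horizontal axis, bars ± SE, edgeR; 3 libraries at D10 and 5 at D3). Itgax has the highest value at 3.58 and Cdca3 the lowest at -4.30.

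The number of calls depended on the libraries. It was 141 without the third D3 mixed library, 24 without the first D3 resident one and 30 without the D2 resident one. It was 20 without the D10 resident library, 15 without the first D10 mixed library, 12 without the second and 6 with mixed libraries alone. Of those 6, 4 were higher at D10, with Cst7, Apoc1 and Ccl6 among them. Most of the other rises named above were therefore not called with mixed libraries alone. DESeq2 called 78, of which 22 were among the 46. Cst7, Apoc1 and Ccl6 kept their calls in each of these fits and lost them only with the infiltrating libraries added. The D3 mixed libraries 1 and 2 formed a sequencing pool of their own and stood apart in P2ry12, a purinergic receptor of resting microglia, at 1096 and 1168 CPM against 186 to 407 CPM in the other D3 libraries. Without them 124 genes were called, 44 of the 46 among them. Sequencing pool could not be fitted beside time, and the effects of pool and of time cannot be told apart in these contrasts.

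Apoc4, Apoc1 and Apoe were lower still at D2. In the resident and mixed D2 libraries Apoc4 was 8.21 and 0 CPM, Apoc1 was 30.5 and 39.5 CPM and Apoe was 4320 and 5060 CPM. Against D10, 14 of 7727 genes passed in edgeR's fit (0.181%), 9 higher at D10 (0.116%) and 5 lower (0.0647%). The higher genes included Apoc4 (5.33 ± 0.58), Apoc1 (4.78 ± 0.43), Apoe (4.01 ± 0.46), Igf1 (3.06 ± 0.36) and Cst7 (2.64 ± 0.40), all log2 ± SE. Gpnmb was 17.6 and 0 CPM at D2 and 169 to 503 CPM at D10 (4.54 ± 0.77; adjusted p 0.010, edgeR). Lyz2 (3.22), Il4i1 (4.0) and Pianp (2.85) were higher as well. The 5 lower genes were Ms4a6b (-2.24), Tgfbi (-2.11), Stmn1 (-1.78), Alox5ap (-1.46) and Pclaf, whose groups overlapped. Alox5ap encodes the activating protein of leukotriene synthesis. The comparisons of D10 with D2 and with D3 share the D10 libraries. Without the D2 resident library 2 genes were called, without the D2 mixed one 6, without the D10 resident one 4 and without the second D10 mixed one 7. Leaving out D3 mixed library 1, 2 or 3 gave 26, 25 or 38. With mixed libraries alone 0 were called (356 at an unadjusted p under 0.05, edgeR).

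From D10 to D21 no gene of 7727 passed (0%) in edgeR's fit, with 85 at an unadjusted p under 0.05. DESeq2 called 1. The D21 side is a single library, assumed to vary like the other groups. Cst7 (1574 CPM), Apoc1 (743 CPM) and Lag3 (447 CPM) at D21 lay inside the D10 range. Apoc4 equalled its highest D10 library at 352 CPM, and Apoe (76460 CPM) was above its D10 range. Igf1 (338 CPM) lay below its D10 range of 344 to 410 CPM, and Chst2 (129 CPM) above its range of 53.7 to 120 CPM.

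At D1 the cluster was represented by 1 library of 25 cells and 57309 UMIs. The spread at D1 was not measured, and the fit takes it from the other groups, so these values describe that library. Between D1 and D3, 16 of 7727 genes passed in edgeR (0.207%), 6 higher at D3 (0.0776%) and 10 lower (0.129%), while the median of all genes was 0.65 on the log2 scale. With median-of-ratios scaling that median was 0.47, and 3 were higher and 12 lower. DESeq2 called 23 higher and 12 lower, 8 of these 35 among the 16, so the balance of directions differed between the tools. The decoy receptor gene Il1r2 was 820 CPM at D1 (47 counts) and had no count in 1884484 UMIs of D3, so it was at least 515-fold lower there by a floor of 3 counts over the group. The inflammatory chemokine gene Ccl4 was 3280 CPM at D1 and 325 to 927 CPM at D3, and Cd14 was 1518 CPM and 152 to 349 CPM. Of the 25 D1 cells 5 (20%) carried cell type code 2, against 1.01% to 5.88% in the D3 libraries. With code 1 cells alone the Ccl4 difference reversed to 0.71 on the log2 scale, and 10 genes were called. Among the higher genes were Olfml3 (157 CPM and 1411 to 2388 CPM) and the cathepsin genes Ctsb and Ctsd. Stmn1 had no count at D1 and was at least 6.48-fold higher at D3. With mixed libraries alone 0 passed (534 at an unadjusted p under 0.05, edgeR). Without the third D3 mixed library 34 passed. Leaving out the first or second D3 resident library gave 6 or 9, the D2 resident one 9, the D2 mixed one 10 and the D10 resident one 8.

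Cluster 3 held cells of 2 cell type codes, which the authors' table gives without names. The code was 1, that of all cells in clusters 1, 4, 5, 6 and 7, for 3312 cells, and 2, that of all cells in clusters 8 to 14, for 348. Cluster 2 also held code 2 cells, 123 of its 1924. Code 2 made up 80.0% of the cluster 3 cells of the infiltrating libraries of D10 and D21 (168 of 210) and 5.12% in the 12 resident and mixed libraries (175 of 3421). The comparison of sorts was added after these shares were seen. It set the 3 infiltrating libraries against the resident and mixed ones with time and sex as terms in edgeR, and 184 of 4415 genes passed (4.17%), 75 higher (1.7%) and 109 lower (2.47%) in the infiltrating sort. The count was 53 without the first D10 infiltrating library, 116 without the second, 99 without the D21 infiltrating one, 115 without the first D10 mixed one and 94 without the D21 mixed one. Since sort decides which cells enter, this describes which cells the cluster holds in each sort.

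Of the homeostatic microglia genes 10 of 21 tested were lower in the infiltrating sort and none higher (median -1.51, beside -0.02 over all genes). Gpr34, a lysophosphatidylserine receptor, was 48.7, 183 and 172 CPM in the infiltrating libraries and 512 to 660 CPM in the 4 resident and mixed libraries of D10 and D21 (-2.13 ± 0.31; adjusted p 4.4e-04, edgeR). The others included Sparc (-3.55), Olfml3 (-1.65), Siglech (-2.54), Bin1 (-1.80) and Sall1 (-3.70). The summed microglia markers were 3187 to 6529 CPM in the infiltrating libraries, and the summed macrophage markers were 1463 to 1677 CPM. Sall1, a transcription factor of microglia, was 0, 0 and 5.92 CPM against 21.5 to 31.8 CPM, and its call was lost under 9 settings. Npnt, Cspg4, Mmp12 and Thrsp had no count in 623643 UMIs of the infiltrating libraries. By the floor of 3 counts over the group they were at least 6.92-fold, 7.14-fold, 10.8-fold and 5.38-fold lower. Fscn1 (-4.97), Xlr (-4.34), Plpp1 (-4.24), Tspan7 (-4.02) and the chemokine gene Ccl4 (-3.90) completed the lowest.

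The markers that name the cluster split in this comparison. Cst7 was 26.6, 227 and 367 CPM in the infiltrating libraries and 1393 to 1948 CPM in the others (-3.38 ± 0.44; adjusted p 1.4e-04, edgeR). Apoc1 was 146, 122 and 77.0 CPM against 578 to 903 CPM (-2.53 ± 0.30), and Lag3 was 17.7, 96.1 and 77.0 CPM against 280 to 520 CPM (-2.77 ± 0.53). None of these groups overlapped, and the Lag3 call was lost without the first D10 infiltrating or the D21 mixed library. Apoc4 did not pass (221, 114 and 213 CPM against 209 to 352 CPM; adjusted p 0.59, edgeR). Apoe had no call (adjusted p 0.12, edgeR) although its 3 infiltrating libraries, at 98210 to 131500 CPM, were above the others at 52640 to 76460 CPM. Of the damage-associated microglia genes 3 of 29 were higher (Lyz2, Cybb and Gpnmb) and 6 lower (Ccl6, Ank, Ctsl, Cst7, Lpl and Csf1). The Gpnmb call was lost without the first D10 infiltrating library.

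Of the macrophage list 1 of 6 tested was higher, Ms4a7, and 1 was lower, Fn1, which encodes fibronectin. Ms4a7, a membrane protein of tissue and border macrophages, was 1332, 1284 and 1576 CPM in the infiltrating libraries and 95.9 to 303 CPM in the others (3.48 ± 0.41; adjusted p 6.9e-05, edgeR). Clec12a, an inhibitory lectin receptor of myeloid cells, was 142 to 190 CPM against 5.57 to 18.3 CPM (4.42 ± 0.48). The highest log2 differences were those of Gdf3 (5.35), Sirpb1c (4.91), Plbd1 (4.82), Anxa1 (4.64), Hopx (4.59), Gm21188 (4.42), Clec12a, Acp5 (4.30), Cd24a (4.26) and B3gnt8 (4.15). Lyz2 was 26600 to 52530 CPM against 4412 to 6671 CPM. F13a1 was the 1 called of 2 tested monocyte genes, and F13a1 and Ms4a7 were 2 of 3 tested border macrophage genes; all were higher. Of the MHC class II list 4 of 8 were higher (H2-Eb1, H2-Aa, Cd74 and H2-Ab1), which present peptides to T cells. H2-Aa was 57.6, 258 and 1878 CPM against 2.62 to 44.6 CPM, so the D21 library was far above the 2 D10 libraries. The D10 infiltrating library 1 shares a sequencing pool with the D10 resident library and the D10 infiltrating library 2 with the D10 mixed ones. With pool as a term Cst7 differed by -3.45 and Ms4a7 by 3.19, and in the reporter strain alone Cst7 differed by -4.77 and Ms4a7 by 2.41.

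In 5 libraries with at least 20 cluster 3 cells of each code, the 2 codes were compared as a description. How the codes were assigned is not given, and they may rest on the same genes. Cst7 was 2092 and 279 CPM in code 1 and code 2 of the D10 resident library, 1432 and 245 CPM and 1635 and 680 CPM in the D10 mixed libraries, 1598 and 1240 CPM in the D21 mixed library and 1078 and 17.7 CPM in the D21 infiltrating one. It was lower in code 2 in all 5. Lpl, the lipoprotein lipase gene, averaged 686 CPM in code 1 and 73.2 CPM in code 2. Ch25h, which makes 25-hydroxycholesterol, averaged 146 and 15.1 CPM, and Il4i1 averaged 64.6 CPM in code 1 and had no count in code 2. Gpnmb averaged 168 CPM in code 1 and 2258 CPM in code 2, and Lyz2 5260 and 31500 CPM. Apoc4 was 201 to 345 CPM in code 1 and 212 to 651 CPM in code 2 and higher in code 2 in 4 of 5 libraries, and Apoe was higher in code 2 in all 5 libraries. Ms4a7 was higher in code 2 in all 5 libraries, at 514 to 1759 CPM. In code 1 it was 204, 71.01, 73.7 and 88.1 CPM in the D10 resident, D10 mixed and D21 mixed libraries, while the 23 code 1 cells of the D21 infiltrating library had 1204 CPM of Ms4a7 beside 1078 CPM of Cst7.

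**Figure D5:**
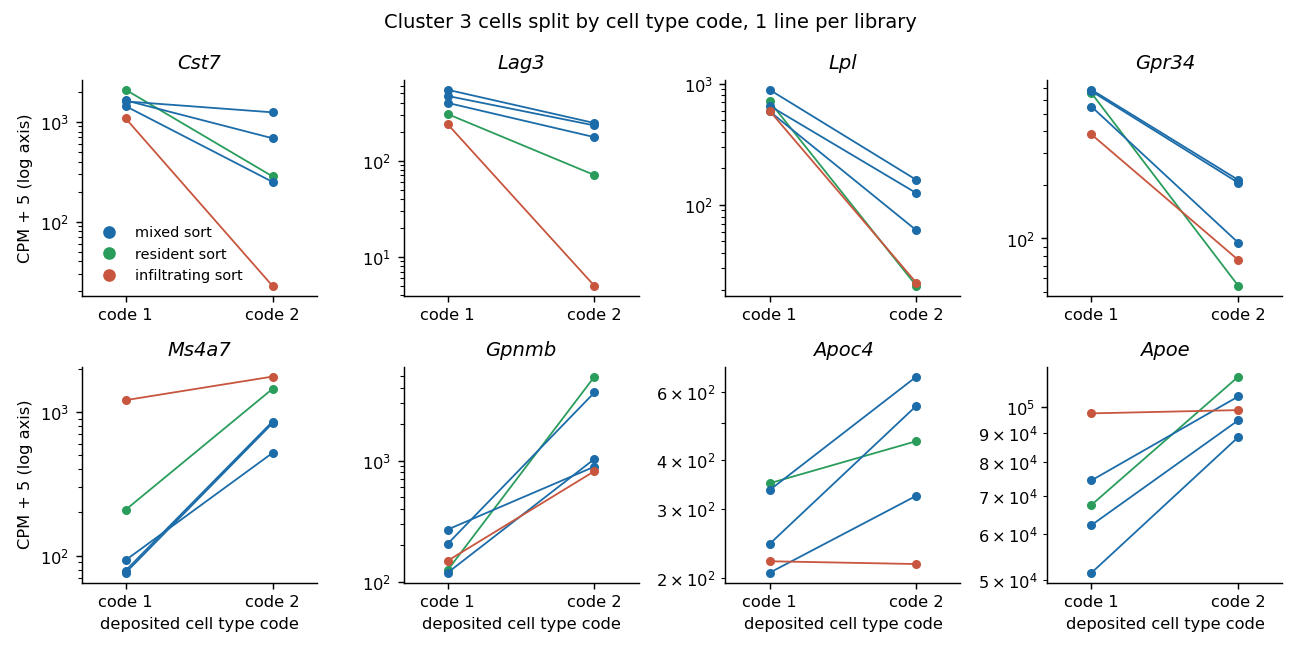
Level of 8 genes (CPM + 5, log axis) in cluster 3 cells of cell type code 1 and code 2 in the same library, 1 line for each of 5 libraries, coloured by sort. Lines for Cst7, Lag3, Lpl and Gpr34 go down from code 1 to code 2 and lines for Ms4a7 and Gpnmb go up; Apoc4 in the infiltrating library is nearly level.

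With code 1 cells alone 44 genes were called between D10 and D3, 41 of them among the 46. The genes whose level was most like that of Cst7 over 59 sums of clusters 1 to 6 by library (19 libraries, 4942 genes, log2 CPM) were Apoc1 (Pearson r 0.833), Gnas (0.823), Pianp (0.818), Ank (0.814) and Gm1673 (0.803). The sums share libraries and time points, so these are descriptions with no test.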

How the data were processed

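For each of the 25 libraries the authors deposited a matrix of UMI counts and a table of cluster, cell type, sex, sort, time and pool codes per cell. Per the submitters' processing notes, Cell Ranger 3.1.0 and the builds GRCm38 and mm10 were used; the deposited counts match the deposited cell totals for all 30958 cells. The cell filters are not given in the sources used here; the lowest cell had 713 UMIs and the highest mitochondrial percent deposited by the authors was 22.65%. No doublet caller was run. Counts of cluster 3 cells were summed per library (at least 20 cells) and tested with edgeR 4.0.16 in R 4.3.3 (TMM scaling, expression filter, quasi-likelihood, 2-sided, time and sex as terms, Benjamini-Hochberg over all genes tested, threshold 0.05), with one spread estimated over 12 libraries; the infiltrating comparison used 15. DESeq2 1.42.0 was an alternative. Fitted fold changes are adjusted for sex, so they can differ from ratios of means. Within-library ratios add 5 CPM to both sides. The library is the replicate; where nothing says that libraries came from separate mice, p-values measure the spread between libraries, which may be technical. On simulated data with 12 libraries, 70.2% of 94 genes changed 4-fold and 97.9% of 94 changed 16-fold were recovered for D10 against D3, among 7586 genes tested. In that simulation 5 unchanged genes were called as well. It gave every gene the same spread and held no effect of sort, strain or pool, so its rates need not hold for the real libraries.

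Named genes follow a rule: the 20 highest within-library differences; the 5 highest and 5 lowest against clusters 4 and 5; the 10 highest and 10 lowest called genes per contrast at a mean of 20 CPM or more without overlap; the working markers; and up to 4 genes per list, from 33 lists. Apoe, P2ry12, Gpr34, the promoter genes and further genes of the lists that were called, as well as the examples from the cell type codes, were chosen after values were seen. Members and lists were chosen with earlier results of these data known. Xist and Y-linked genes were not analysed here. No within-library comparison with cluster 1 was possible, since cluster 1 and cluster 3 share no library. A few genes of the marker lists are not reported here.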

Additional observations from a re-analysis of the deposited data

Results flagged for a closer look

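Of 32 quantities checked in the 5 resident and mixed D3 libraries, 4 had a library far from the other 4 (its gap to the nearest library over the whole range above 0.71); chance flags about 1 in 20 groups. Ccnb2, the mitotic cyclin, was 90.5 CPM in the second D3 mixed library and 21.2 to 37.1 CPM in the others. Ptgds was 17.2 CPM in the third D3 mixed library and 0 to 3.47 CPM in the others. The share of cluster 3 was 42.8% in the second D3 resident library and 37.9% to 39.2% in the others. Cluster 3 cells of the first D3 resident library had a median of 2952 UMIs, against 1577 to 1904 in the others. The cause was not tested for any of these.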

How the results depend on the processing

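For D10 against D3 (46 genes called), 78 genes were called by DESeq2, 171 without the expression filter, 10 with at least 50 cells per library, 6 with mixed libraries alone and 17 at equal depth. The genes tested also differ between settings: at equal depth 1465 were tested, against 7727 (for the infiltrating sort 1567, against 4415), so its lower counts do not mean a lower share. Leaving out each library in turn gave 12 to 141. Without D3_mixed 1 and 2, added after seeing the data, 124 were called. With the replicate block, which used 6 mixed libraries and left 1 residual degree of freedom, 1146 genes were called, 36 of them among the 46, and Ccl7 reversed to 3.18. For D3 against D1 (16) the replicate block gave 190. D3 and D10 mixed libraries share only a number: deviations of those with the same number correlated at 0.044 and -0.033 over 2075 genes. The fitted D1 and D3 libraries share 1 number only, so the value for that contrast comes from the same 6-library fit. No paired analysis was possible for D10 against D2 and D21 against D10, which share fewer than 2 numbers, or for the infiltrating sort, because the labels number none of its libraries.

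For D10 against D2 (14), the counts were 35 by DESeq2, 73 without the filter, 3 with at least 50 cells, 0 with mixed libraries alone, 4 with infiltrating libraries added, 8 at equal depth, 59 without D3_mixed 1 and 2, and 2 to 38 leaving out each library. For D3 against D1 they were 35 by DESeq2, 48 without the filter, 0 with mixed libraries alone, 3 with infiltrating libraries added, 10 with cell type code 1 alone, 39 without D3_mixed 1 and 2, and 6 to 34 leaving out each library; Ccl4 reversed to 0.71 and Gadd45b to 6.15 with code 1 alone. For D21 against D10 (0), DESeq2 called 1 and the fit without filter 5. In that contrast, where nothing passed, Apoc1 reversed to -0.08 with mixed libraries alone, -0.28 with infiltrating libraries added, -0.04 with a sort term and ranged from -0.05 (without D10_resident 1) to 0.43 leaving out each library. Cst7 reversed to -0.17 and Igf1 to -0.15 with at least 50 cells, and Igf1 to -0.21 with infiltrating libraries added; leaving out each library, Igf1 ranged from -0.02 (without D3_resident 1) to 0.68.

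For the infiltrating sort (184), 313 were called without the filter, 568 with a pool term, 68 at equal depth, 576 with D10 alone, 122 with 1 strain alone and 53 to 248 leaving out each library. The genes higher in every library than in clusters 2, 4, 5 and 6 (57) were 95 with at least 50 cells. The share of cells with an Igf1 UMI (28.6%) was 12.04% at 1000 UMIs, that of Cst7 (45.4%) 24.4% and that of Apoc4 (7.14%) 2.66%. The cause was not tested for any of these changes. D10 against Ctrl was not run, since no Ctrl library held a cluster 3 cell, and a pool term could not be fitted for the time contrasts. Depth limits the D1 and D2 values, where 25 and 33 cells stood behind the smallest libraries.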

Other observations

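Cx3cr1, the fractalkine receptor gene at which the Cre is placed, differed between sorts within cluster 3. It was 5.30 to 108 CPM (median 18.6) in 8 mixed libraries, 190 to 475 CPM (median 296) in 4 resident libraries and 88.9 to 124 CPM (median 118) in 3 infiltrating libraries. The mixed and resident libraries did not overlap. Sort and strain cannot be told apart here, and no test was run.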
